A study of Mus musculus with 6 samples.

Results

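The Toll-like receptors and their CD14 complex were examined as a set of 10 listed genes, taken by symbol from the 23231 genes with counts in at least 1 of 6 RNA-Seq libraries. The set holds 4 receptors of the cell surface (*Tlr1*, *Tlr2*, *Tlr4* and *Tlr6*), 3 endosomal receptors (*Tlr3*, *Tlr9* and *Tlr13*), the co-receptors *Cd14* and *Ly96*, and the adaptor *Myd88*. All libraries were labeled as C2C12, mouse myoblasts that form myotubes in low serum, and were prepared from polyA RNA on day 5 of differentiation in 2% horse serum. Every culture had received lentivirus (multiplicity of infection 100) and had been selected with 2 μg/ml puromycin. The 3 dCas9-KRAB libraries came from cells with dCas9-KRAB, a nuclease-dead Cas9 fused to a repressor domain, and no enhancer sgRNA. The 3 dCas9-KRAB-En5 libraries came from cells that carried the same fusion and sgRNAs against Myog-En5, a putative enhancer of *Myog*. The labels do not state whether replicates were separate cultures, so p values measure the spread between these libraries, which may be technical.

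Toll-like receptors recognize microbial molecules and are prominent in macrophages and other cells of innate immunity. TLR2 pairs with TLR1 or TLR6 to bind bacterial lipopeptides, and TLR4 binds lipopolysaccharide together with LY96 after CD14 has delivered the ligand. TLR3, TLR9 and TLR13 lie in endosomes and bind double-stranded RNA, unmethylated CpG DNA and bacterial ribosomal RNA. MYD88 links every Toll-like receptor except TLR3 to NF-κB and to inflammatory genes.

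The following target sites of the 2 sgRNAs are what separates the groups by design. Each is printed 5′ to 3′ with its PAM, the motif next to the target that Cas9 requires, in capitals.
Myog-En5-sgRNA1: gaaggggttactgtcggcagAGG
Myog-En5-sgRNA2: gaccggaagattgaaccactGGG

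Promoter windows of 300 bases, from 250 bases before to 50 after a RefSeq gene start (GRCm38.p6), were at hand for 7 of the 10 genes, in 9 windows. The RefSeq starts need not be the ends of the GENCODE genes given with the levels, and lie 159, 700 and 1393 bases inside the GENCODE gene for *Tlr2*, *Tlr3* and *Myd88*. The windows of *Tlr2*, the most abundant receptor, of *Tlr3*, the receptor with lower TPM in all dCas9-KRAB-En5 libraries, and of *Myd88*, the shared adaptor, are printed on the gene's strand, which is the minus strand for all 3, with motif matches in capitals.
*Tlr2* (chr3:83841559-83841858): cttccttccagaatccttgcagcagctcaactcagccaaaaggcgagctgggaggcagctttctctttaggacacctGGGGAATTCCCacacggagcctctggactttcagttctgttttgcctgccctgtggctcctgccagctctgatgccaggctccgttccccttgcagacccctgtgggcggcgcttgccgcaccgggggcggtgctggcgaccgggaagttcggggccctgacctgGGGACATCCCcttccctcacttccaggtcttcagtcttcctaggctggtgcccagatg
*Tlr3* (chr8:45410331-45410630): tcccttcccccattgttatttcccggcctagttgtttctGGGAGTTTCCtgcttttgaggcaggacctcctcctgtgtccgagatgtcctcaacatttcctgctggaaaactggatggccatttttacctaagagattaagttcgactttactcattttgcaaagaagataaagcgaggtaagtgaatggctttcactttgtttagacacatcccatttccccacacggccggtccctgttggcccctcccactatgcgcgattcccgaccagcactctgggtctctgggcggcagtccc
*Myd88* (chr9:119339969-119340268): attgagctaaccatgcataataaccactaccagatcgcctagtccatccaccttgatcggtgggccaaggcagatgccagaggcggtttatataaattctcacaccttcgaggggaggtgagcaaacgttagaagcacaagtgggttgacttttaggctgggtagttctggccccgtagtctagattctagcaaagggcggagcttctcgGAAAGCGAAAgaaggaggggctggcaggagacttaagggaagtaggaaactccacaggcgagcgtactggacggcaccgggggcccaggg

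A search of both strands for the NF-κB consensus matched the *Tlr2* window at 3 starts, 173, 172 and 8 bases before the RefSeq start, of which the first 2 overlap, and the *Tlr3* window at 211 bases before it. The core of the interferon-stimulated response element, 2 copies of GAAA with any 2 bases between them, matched the *Myd88* window at 40 bases before the RefSeq start and 1 of the 2 *Tlr6* windows at 2 overlapping places. The PU.1 core, GAGGAAG, matched 1 window each of *Tlr1*, *Tlr9* and *Tlr13*. Of 32851 windows of this length, 8.46% held the NF-κB consensus, 3.44% the response element core and 13.6% the PU.1 core. These matches describe letters in the windows and no binding was measured.

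The counts summed to between 31831093 and 73988425 per library. *Myog*, the gene whose enhancer was targeted, had 1136 ± 80.9 TPM (SD, n = 3; TPM are counts per gene length, scaled to the same sum in every library) in dCas9-KRAB and 0.126 ± 0.219 TPM (SD, n = 3) in dCas9-KRAB-En5. dCas9-KRAB-En5 replicate 3 stood apart, with 13991 genes listed against 17084 to 19395 elsewhere and 25.8% of counts in ribosomal protein genes against 10.8% to 19.4%. The labeled cell type was checked with marker lists. Of 16 muscle markers, led by *Mylpf*, *Acta1* and *Tnnc1*, all 16 fell, from a summed level of 18759 to 21703 TPM in dCas9-KRAB to 79.6 to 192 TPM in dCas9-KRAB-En5. The 30 macrophage markers summed to between 8422 and 10434 TPM in dCas9-KRAB and to between 14628 and 20778 TPM in dCas9-KRAB-En5. *Lyz2*, *Tyrobp* and *Coro1a* led that list, and 17 of its 30 genes reached 10 TPM in all 6 libraries. *Mrc1* was at 0 in every library, and the complement genes *C1qa*, *C1qb* and *C1qc* reached at most 0.514, 0.982 and 0.210 TPM. Of the 26 macrophage markers tested, 3 rose (*Adgre1*, *Clec4d* and *Lilrb4a*) and 0 fell, where 1.52% of all genes tested rose and 4.67% fell. By TPM, 5 of the 26 lay above dCas9-KRAB in all dCas9-KRAB-En5 libraries and 5 lay below. Of all genes tested 7.76% and 19.7% did so. The 5 above were those 3, *Cd68* and *Lyz2*, and the 5 below were *Fcgr1*, *Aif1*, *Mpeg1*, *Cd52* and *Ms4a6c*. Neutrophil, dendritic cell, T cell, B cell and endothelial lists summed to at most 12.5, 11.1, 8.35, 1.48 and 0.860 TPM in any library. The defining markers *Cd3e* and *Clec9a* were at 0 throughout, whereas *Lck* of the T cell list had 3.24 to 7.60 TPM. *Ccr7* of the dendritic cell list rose and reached 10.8 TPM in dCas9-KRAB-En5 replicate 1. *Siglech*, *Zap70* and *Pax5* of these lists fell, from at most 3.68, 0.634 and 0.326 TPM in dCas9-KRAB. The 15 mesenchymal markers summed to between 113 and 344 TPM in dCas9-KRAB and to between 38.9 and 69.1 TPM in dCas9-KRAB-En5. In bulk RNA, fewer cells of a type and less RNA per cell cannot be told apart, and the part of the marker changes in the results that follow was not tested.

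All 10 genes had counts and were kept by the filter on low counts, and none was called different between the groups. The call required an edgeR quasi-likelihood adjusted p no larger than 0.01 and a log2 fold change, dCas9-KRAB-En5 over dCas9-KRAB, of 1 or more in either direction. With these cutoffs 6.19% of the 14378 genes tested were called. Of the set 0 of 10 rose, where 1.52% of all genes rose, and 0 of 10 fell, where 4.67% of all genes fell. With the replicate number as a block none of the 10 was called either (beside 10.7% of all genes). The TPM of the groups did not overlap for 2 of 10, *Tlr1* and *Tlr3*, as for 27.5% of all genes tested. By group, *Cd14* had the highest TPM of the set and *Tlr3* the lowest. The median log2 fold change of the 10 genes was 0.38 beside 0.08 for all genes tested. At an unadjusted p under 0.05 there was 1 of 10 in edgeR (beside 32.9% of all genes), 1 of 10 in limma on log2(TPM + 1) (beside 26.6%) and 2 of 10 in DESeq2 (beside 25%).

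**Figure D1:**
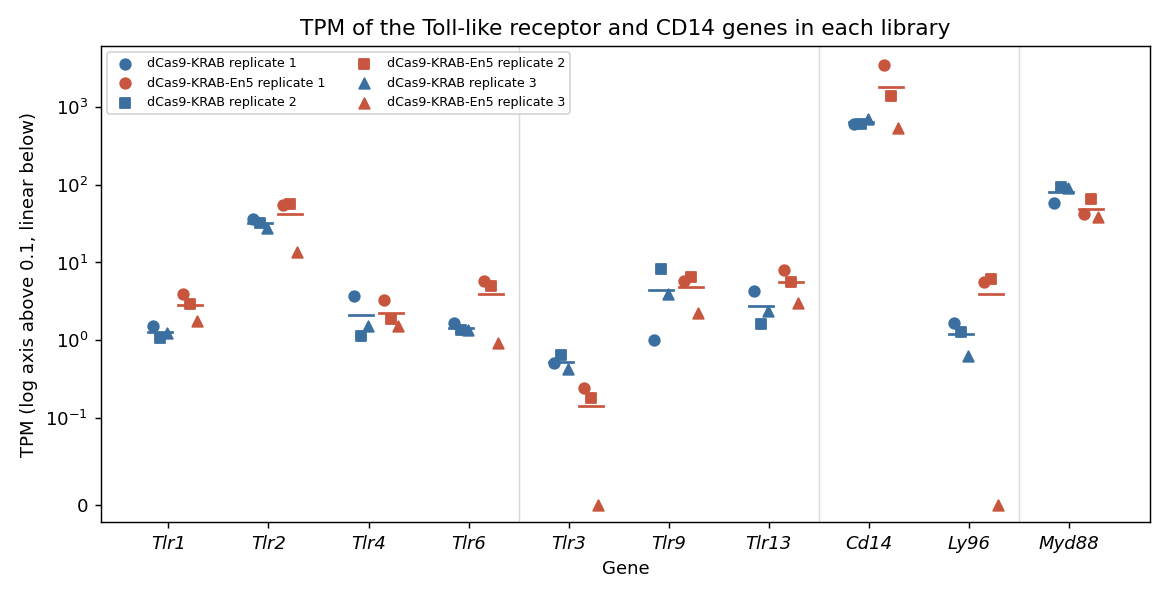
TPM of each gene (x axis) in each library on a log axis that is linear below 0.1 (y axis), with dCas9-KRAB in blue, dCas9-KRAB-En5 in red, 1 marker shape per replicate number and a line at each group mean. *Cd14* lies between 525 and 3398 TPM, and the triangle of dCas9-KRAB-En5 replicate 3 is the lowest red marker for all 10 genes.

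*Tlr2* was the most abundant receptor, making up 59.2% to 74.0% of the summed TPM of the 7 receptors in each library. Its level was 36.5, 31.6 and 28.0 TPM in dCas9-KRAB replicates 1 to 3. In dCas9-KRAB-En5 it was 54.6, 56.0 and 13.8 TPM. Replicates 1 and 2 of dCas9-KRAB-En5 lay above all dCas9-KRAB libraries and replicate 3 below them, so the groups overlapped. The log2 fold change was 0.02 (SE 0.43, edgeR adjusted p = 0.976), and its sign differed between normalizations. *Tlr2* is at chr3:83836272-83841767 on the minus strand (GRCm38, GENCODE).

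The partners of *Tlr2* were present at a few TPM. *Tlr1* had 1.53, 1.06 and 1.26 TPM in dCas9-KRAB and 3.95, 2.91 and 1.78 TPM in dCas9-KRAB-En5. All dCas9-KRAB-En5 libraries were above all dCas9-KRAB libraries, a separation that 7.76% of all genes tested showed, and the exact permutation test gave p = 0.1 (two-sided, the smallest that 3 against 3 libraries allow). For *Tlr1* the log2 fold change was 0.96 (SE 0.54, edgeR adjusted p = 0.238). *Tlr6* had 1.66, 1.35 and 1.35 TPM in dCas9-KRAB and 5.74, 5.00 and 0.926 TPM in dCas9-KRAB-En5. Again replicates 1 and 2 of dCas9-KRAB-En5 were the highest and replicate 3 the lowest of the 6 libraries. Its log2 fold change was 1.02 (SE 0.55, edgeR adjusted p = 0.224). The ratio of *Tlr2* to *Tlr6* TPM was 22.0 ± 1.30 (SD, n = 3) in dCas9-KRAB and 11.9 ± 2.73 (SD, n = 3) in dCas9-KRAB-En5, and the 3 values of one group, 20.7 to 23.3, did not overlap those of the other, 9.52 to 14.9. The ratio of *Tlr2* to *Tlr1* was 25.3 ± 3.99 and 13.6 ± 5.76 in the same order (SD, n = 3 each), without overlap. The groups overlapped for the ratios of *Tlr2* to *Tlr4*, *Tlr6* to *Tlr1*, *Cd14* to *Tlr2* and *Myd88* to *Tlr2*. How often the ratios of other gene pairs separate in this way was not tested. *Tlr1* (chr5:64924679-64933563) and *Tlr6* (chr5:64952031-64960097) are neighbors on the minus strand with 18.5 kb between them. They shared 15.4% of the 50-base words of *Tlr1* transcripts and 12.3% of those of *Tlr6* with other genes, mostly with each other, so their separate levels are uncertain to that extent.

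*Tlr4*, the lipopolysaccharide receptor, was low in both groups. It had 3.75, 1.15 and 1.52 TPM in dCas9-KRAB and 3.28, 1.86 and 1.53 TPM in dCas9-KRAB-En5. Replicate 1 was the highest library of each group, and the groups overlapped over nearly their whole range. Its log2 fold change was -0.13 (SE 0.60, edgeR adjusted p = 0.905), and without dCas9-KRAB replicate 1 it was 0.56, also not called. Its sign was also positive in limma and with the replicate block. *Tlr4* is at chr4:66827584-66930284 on the plus strand.

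Among the endosomal receptors, *Tlr3*, the sensor of double-stranded RNA, was lower in every dCas9-KRAB-En5 library. It had 0.510, 0.641 and 0.425 TPM in dCas9-KRAB, from 72, 125 and 99 counts. In dCas9-KRAB-En5 it had 0.245 and 0.181 TPM, from 27 and 16 counts, and 0 counts in replicate 3, which allows up to 0.0252 TPM (3 counts, counting error only). The groups did not overlap, as for 19.7% of all genes tested in that direction (p = 0.1, two-sided exact permutation test, again the smallest possible). The log2 fold change was -2.34 (SE 1.02, edgeR adjusted p = 0.134), and the adjusted p was 0.0334 in DESeq2. In DESeq2 1 of 10 genes of the set had an adjusted p of at most 0.05, where 16.4% of all genes tested did. *Tlr3* (chr8:45395665-45411080, minus strand) shares 381 exonic bases with a gene model on the opposite strand. The sources used here do not say whether reads were counted by strand.

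*Tlr9*, the sensor of CpG DNA, had 1.01, 8.25 and 3.94 TPM in dCas9-KRAB and 5.85, 6.49 and 2.25 TPM in dCas9-KRAB-En5. The lowest and the highest of the 6 libraries were both dCas9-KRAB, and the log2 fold change was -0.06 (SE 0.62, edgeR adjusted p = 0.956), with a positive sign in limma and with the replicate block. *Tlr13*, the sensor of bacterial ribosomal RNA, had 4.35, 1.65 and 2.36 TPM in dCas9-KRAB and 8.08, 5.56 and 2.99 TPM in dCas9-KRAB-En5. Of the dCas9-KRAB-En5 libraries, 2 lay above all dCas9-KRAB libraries and replicate 3 lay among them. Its log2 fold change was 0.74 (SE 0.53, edgeR adjusted p = 0.360). *Tlr9* is at chr9:106222598-106226883 and *Tlr13* at chrX:106143204-106160493, both on the plus strand.

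*Cd14*, the co-receptor that hands lipopolysaccharide to TLR4, made up 81.3% to 96.3% of the summed TPM of the set in each library. It had 601, 604 and 699 TPM in dCas9-KRAB. In dCas9-KRAB-En5 it had 3398, 1369 and 525 TPM. The dCas9-KRAB libraries lay close together, with 635 ± 55.6 TPM (SD, n = 3), whereas dCas9-KRAB-En5 had 1764 ± 1477 TPM (SD, n = 3), with replicates 1 and 2 above and replicate 3 below all of dCas9-KRAB. The edgeR estimate of the log2 fold change was 1.14 (SE 0.56, adjusted p = 0.177), and without dCas9-KRAB-En5 replicate 1 it was 0.43. In each library *Cd14* was above at least 98.0% of all genes tested. The ratio of *Cd14* to *Tlr4* TPM ranged from 160 to 524 in dCas9-KRAB and from 344 to 1036 in dCas9-KRAB-En5, so these ranges overlapped.

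*Ly96*, which binds lipopolysaccharide as the partner of TLR4, had 1.66, 1.28 and 0.634 TPM in dCas9-KRAB and 5.69, 6.07 and 0 TPM in dCas9-KRAB-En5. The level in dCas9-KRAB-En5 replicate 3 rests on 0 counts, against 123 and 105 in replicates 1 and 2, which allows up to 0.128 TPM. The log2 fold change was 1.19 with the largest SE of the set (1.14, edgeR adjusted p = 0.502). It was 0.33 with the replicate block and between 0.74 and 1.69 with 1 library left out. *Ly96* is at chr1:16688051-16709611 on the plus strand.

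*Myd88*, the adaptor, had 57.3, 91.8 and 89.7 TPM in dCas9-KRAB and 42.3, 65.5 and 38.6 TPM in dCas9-KRAB-En5. Only dCas9-KRAB-En5 replicate 2 lay above the lowest dCas9-KRAB library. Its log2 fold change was -0.82 (SE 0.45, edgeR adjusted p = 0.232). *Myd88* (chr9:119335934-119341411, minus strand) shares 290 exonic bases with *Acaa1a* on the opposite strand.

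The order of the mean TPM in dCas9-KRAB was *Cd14*, *Myd88*, *Tlr2*, *Tlr9*, *Tlr13*, *Tlr4*, *Tlr6*, *Tlr1*, *Ly96* and *Tlr3*. *Cd14*, *Myd88*, *Tlr2* and *Tlr9* each lay above the next of these 4 without overlap in the 3 libraries, and from *Tlr9* downward every pair of neighbors overlapped. In dCas9-KRAB-En5 the order was *Cd14*, *Myd88*, *Tlr2*, *Tlr13*, *Tlr9*, *Ly96*, *Tlr6*, *Tlr1*, *Tlr4* and *Tlr3*. There *Cd14* lay above *Myd88*, *Tlr2* above *Tlr13* and *Tlr4* above *Tlr3* without overlap, and the other pairs of neighbors overlapped.

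Since dCas9-KRAB-En5 replicate 3 stood apart, the test was repeated without it. No gene of the set was called at the cutoffs above (beside 25.7% of all genes), but 5 of 10 had an edgeR adjusted p of at most 0.05, where 42.5% of all genes tested did. Of these, *Tlr6* (log2 fold change 1.26, adjusted p = 0.0349), *Cd14* (1.32, adjusted p = 0.0295) and *Ly96* (1.69, adjusted p = 0.0447) were higher in dCas9-KRAB-En5. *Tlr3* (-1.89, adjusted p = 0.0367) and *Myd88* (-1.20, adjusted p = 0.0252) were lower in the same edgeR fit. With all 6 libraries 0 of 10 reached an adjusted p of 0.05, where 17% of all genes tested did.

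**Figure D2:**
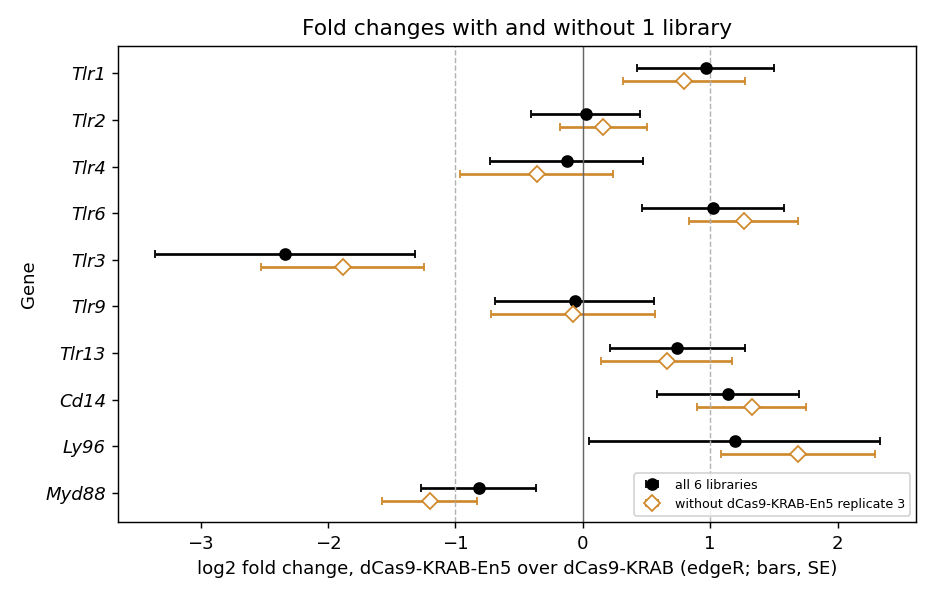
log2 fold change of dCas9-KRAB-En5 over dCas9-KRAB (x axis) of each gene (y axis) in edgeR, with bars for the SE, for all 6 libraries (filled circles) and without dCas9-KRAB-En5 replicate 3 (open diamonds); dashed lines mark -1 and 1. *Tlr3* is lowest at -2.34, and no gene changes sign between the 2 fits.

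In dCas9-KRAB-En5 replicate 3 all 10 genes were lower than in both other dCas9-KRAB-En5 libraries, as were 77.0% of all genes tested. The deficit of that library grew with gene length. Its median log2 TPM ratio to the mean of replicates 1 and 2 was -0.44 for genes with under 1 kb of exons and -1.85 for genes with over 4 kb. These medians were taken with 0.1 TPM added to both values, whereas nothing was added for the single genes that follow. Among the 8 genes with counts in that library, the ratio went from -0.48 for *Myd88* to -2.54 for *Tlr6*. *Cd14*, with 1732 exonic bases, had a ratio of -2.18, below the median of -0.60 for genes of 1 to 2 kb. *Tlr4*, with 5556 exonic bases, had a ratio of -0.75, above the median of its length class. The part of gene length in these differences was not tested beyond an offset for length in the model, under which none of the 10 was called (beside 7.23% of all genes).

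**Figure D3:**
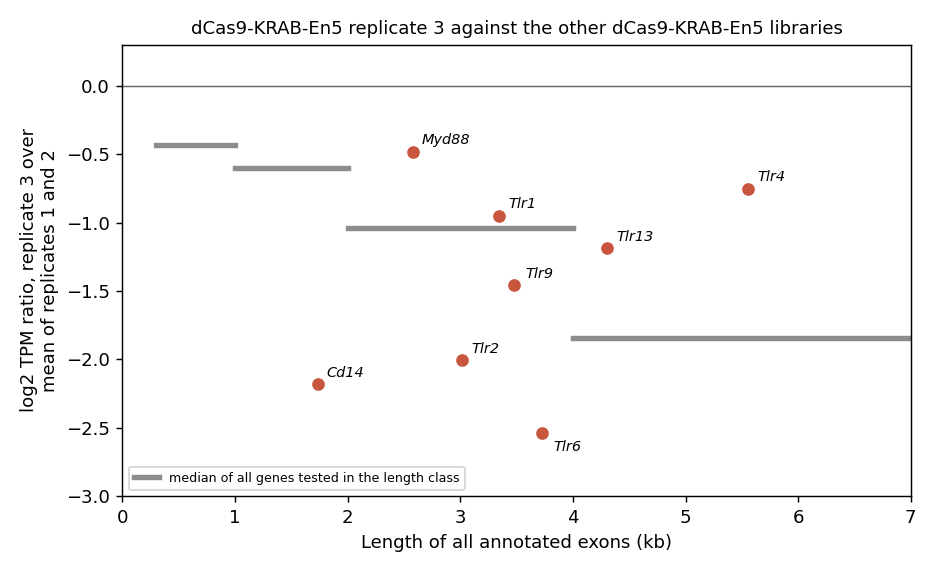
log2 ratio of the TPM of dCas9-KRAB-En5 replicate 3 to the mean of replicates 1 and 2 (y axis) against the length of all annotated exons in kb (x axis) for the 8 genes with counts in that library (red), with gray bars at the median of all genes tested in each of 4 length classes, the last of which has no upper limit. The bars fall from -0.44 to -1.85, while *Cd14* at -2.18 and *Tlr4* at -0.75 lie far from the bar of their class. For the bars 0.1 TPM was added to both values of each ratio, and for the points nothing was added.

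Because macrophage markers were also present, the TPM of each gene was set against the summed TPM of the macrophage list without *Lyz2*, which was 5620 to 6527 in dCas9-KRAB and 7569 to 7690 in dCas9-KRAB-En5. Per 1000 TPM of these markers, *Cd14* had 102 ± 8.36 TPM in dCas9-KRAB and 232 ± 196 TPM in dCas9-KRAB-En5 (SD, n = 3 each), and the groups overlapped. *Tlr2* had 5.21 ± 1.15 and 5.43 ± 3.15 TPM on this scale (SD, n = 3 each), again with overlap. *Myd88* had 12.7 ± 2.15 TPM in dCas9-KRAB and 6.38 ± 1.88 TPM in dCas9-KRAB-En5 (SD, n = 3 each), without overlap, and *Tlr3* was also lower without overlap. These 2 of 10 compare with 29.8% of all genes tested that did not overlap on this scale, and with 25.1% of all genes tested for dCas9-KRAB-En5 below dCas9-KRAB. On this scale the groups of *Tlr1* overlapped. The values depend on leaving out *Lyz2*, the highest marker of the list by mean TPM. With *Lyz2* the list summed to 8422 to 10434 TPM in dCas9-KRAB and 14628 to 20778 TPM in dCas9-KRAB-En5. The genes were not set against that full sum of TPM. With the counts of the full list as the library size, the log2 fold change of *Tlr2* was -0.46.

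The genes whose log2(TPM + 1) over the 6 libraries was most like that of a member were taken from those with a mean of at least 10 TPM, as a description of 6 points that share library depth and length bias. For *Cd14* they were *Nr4a1* and *Btg2*, both genes of the early response to stimuli, and *Rps13* (Pearson r 0.992, 0.980 and 0.977). For *Tlr2* they were *Akirin1*, *Rsl24d1* and *Ddx17* (r 0.998, 0.996 and 0.995). For *Tlr4* they were *Rpl12*, *Nudcd2* and *Acot13* (r 0.990, 0.978 and 0.973). *Nr4a1* had 94.0 and 19.0 TPM in dCas9-KRAB-En5 replicates 1 and 2 and at most 4.12 TPM in the other libraries.

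The other 94 genes of the pathway were listed by role, and 86 of them were tested. Of these 4 rose (4.65%, beside 1.52% of all genes tested) and 5 fell (5.81%, beside 4.67%). Since the lists were chosen with earlier results of these data known, such shares describe the lists and test nothing. The median log2 fold change was 0.35 over the 86 genes and 0.08 over all genes. With the replicate number as a block 6 rose (beside 3.94% of all genes) and 5 fell (beside 6.79%), and without dCas9-KRAB-En5 replicate 3, 19 of 88 rose (beside 11.7% of all genes) and 7 fell (beside 14%). In that fit without dCas9-KRAB-En5 replicate 3, 4 of 20 kinases and ubiquitin ligases (*Tab2*, *Tbk1*, *Traf3* and *Traf6*, named after their values were seen), 2 of 5 other TIR adaptors and 5 of 17 inhibitors rose, and none of these lists had a gene that fell. Of the target genes 6 of 21 rose and 4 fell, of the transcription factors 1 of 11 rose and 2 fell, and of the partners and chaperones 1 of 12 rose and 1 fell. The counts by list that follow are from all 6 libraries, in which 1.52% of all genes tested rose and 4.67% fell. Over all genes tested, 219 rose and 671 fell. That split was 70 and 516 with total counts as the library size, 58 and 1105 with the counts of the macrophage markers, and 96 and 761 with their median ratio.

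Of the other mouse Toll-like receptors *Tlr7*, a sensor of single-stranded RNA, was the only one tested. It had 4.34, 2.22 and 1.54 TPM in dCas9-KRAB and 5.46, 3.45 and 1.49 TPM in dCas9-KRAB-En5 (log2 fold change 0.07, edgeR adjusted p = 0.942). *Tlr5*, *Tlr8* and *Tlr12* reached at most 0.0558, 0.303 and 0.0928 TPM in any library, and *Tlr11* was not listed in any file and was taken as 0.

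Among the 12 partners and chaperones, 0 rose and 1 fell, with a median log2 fold change of 0.09. *Lbp*, which extracts lipopolysaccharide for CD14, fell from 1.91, 9.41 and 4.73 TPM to 0.127, 0.0610 and 0.199 TPM (log2 fold change -5.16, SE 0.87, edgeR adjusted p = 0.00285). The proteases *Ctsb* and *Lgmn*, of which legumain cleaves endosomal receptors, were the most abundant, with means over the 6 libraries of 556 and 519 TPM, and were not called. Of the 5 other TIR adaptors none was called, and their median log2 fold change was 1.00. *Pik3ap1*, which links receptors to phosphoinositide 3-kinase, had 7.45, 12.9 and 10.2 TPM in dCas9-KRAB and 60.9, 64.2 and 10.1 TPM in dCas9-KRAB-En5 (log2 fold change 1.76, edgeR adjusted p = 0.0319). *Ticam1*, the adaptor of TLR3, had a log2 fold change of -0.09 (edgeR adjusted p = 0.913).

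None of the 20 kinases and ubiquitin ligases was called, with a median log2 fold change of 0.41. The most abundant were *Rbck1* and *Rnf31* of the linear ubiquitin ligase, with log2 fold changes of -0.92 and -0.61 (edgeR adjusted p = 0.288 and 0.466). Of the 11 transcription factors 0 rose and 1 fell, with a median of -0.05. *Irf7*, which drives interferon genes, fell from 232, 630 and 589 TPM to 44.4, 93.6 and 57.3 TPM (log2 fold change -2.96, SE 0.59, edgeR adjusted p = 0.00714). *Cebpb* and *Irf5* had the highest mean TPM of the others, and neither was called (log2 fold change 1.13 and -0.05).

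Of the 17 inhibitors 1 rose and 0 fell, with a median log2 fold change of 0.70. *Nfkbiz* rose from 2.42, 1.52 and 2.07 TPM to 74.2, 38.8 and 2.59 TPM (log2 fold change 3.78, SE 0.78, edgeR adjusted p = 0.00824). Its product is a nuclear IκB protein that is also known to be needed for the induction of some NF-κB genes. *Nfkbia*, the classical inhibitor of NF-κB, had 58.0, 126 and 130 TPM in dCas9-KRAB and 538, 493 and 99.2 TPM in dCas9-KRAB-En5 (log2 fold change 1.48, edgeR adjusted p = 0.0714). *Ptpn6*, a phosphatase of immune cells, had a log2 fold change of -0.05 (edgeR adjusted p = 0.950).

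The target genes moved in both directions. Of 24 listed, 20 were tested, and 3 rose and 3 fell, with a median log2 fold change of 0.07. *Ptgs2*, the inducible cyclooxygenase, rose from 2.75, 1.63 and 2.25 TPM to 349, 150 and 8.95 TPM (log2 fold change 5.77, SE 0.94, edgeR adjusted p = 0.00234). The chemokine gene *Cxcl2* rose by 3.74 on the log2 scale (SE 0.69, edgeR adjusted p = 0.00464), from 0.250, 1.11 and 0.961 TPM to 21.6, 14.3 and 3.53 TPM, and shares 5.84% of its 50-base words with other genes. *Ccl3* rose from 105, 288 and 280 TPM to 2706, 1578 and 810 TPM (log2 fold change 2.69, SE 0.55, edgeR adjusted p = 0.00803), and *Ccl4* had a log2 fold change of 2.09 without being called (edgeR adjusted p = 0.0265).

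The 3 target genes that fell also encode chemokines. *Ccl2*, which attracts monocytes, fell from 77.2, 134 and 147 TPM to 1.16, 0.259 and 1.08 TPM (log2 fold change -7.07, SE 0.81, edgeR adjusted p = 0.000222). *Cxcl10*, an interferon-induced gene, fell from 3.34, 107 and 57.8 TPM to 1.53, 2.85 and 1.09 TPM (log2 fold change -5.10, SE 0.95, edgeR adjusted p = 0.00502). *Ccl5*, named after its values were seen, fell from 93.4, 435 and 292 TPM to 40.1, 43.9 and 33.1 TPM (log2 fold change -2.85, SE 0.58, edgeR adjusted p = 0.00790). The groups did not overlap for these 3 genes, as for 19.7% of all genes tested in that direction. The 3 genes were picked as called lower in the same libraries, so their separation adds no support to the calls. In each of the 3, dCas9-KRAB replicate 1 was the lowest of its group. For *Cxcl10* that value, 3.34 TPM, was close to the highest in dCas9-KRAB-En5, 2.85 TPM.

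**Figure D4:**
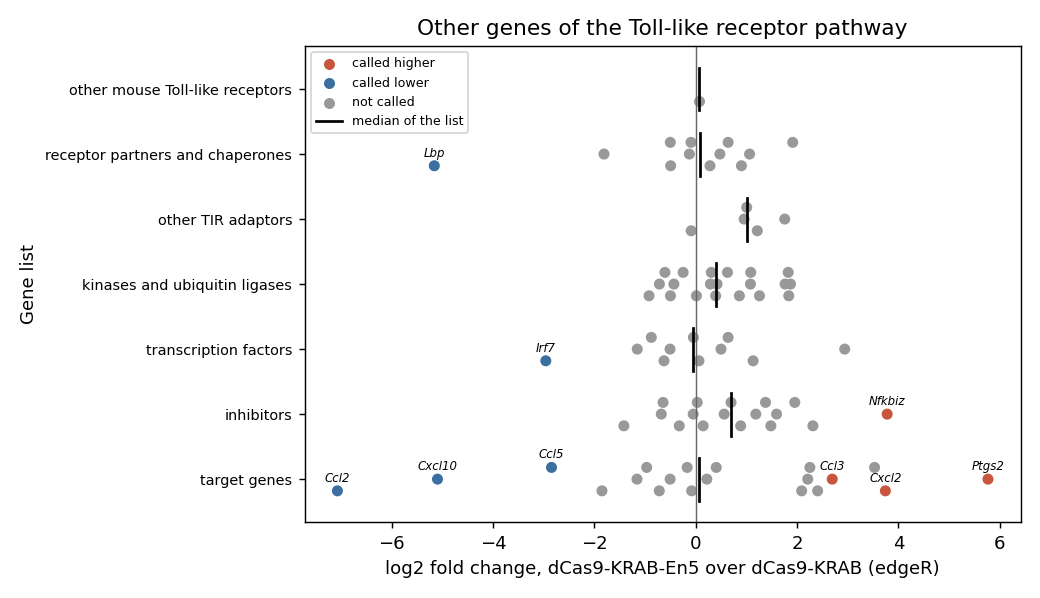
log2 fold change of dCas9-KRAB-En5 over dCas9-KRAB in edgeR (x axis) of each tested gene, 1 point per gene, in 7 lists of pathway genes (y axis), with genes called higher in red, called lower in blue, others in gray, and a black line at each list's median. The called genes run from *Ccl2* at -7.07 to *Ptgs2* at 5.77. Of the 20 target genes tested 3 rose and 3 fell, where 1.52% of all genes tested rose and 4.67% fell. The lists were chosen with earlier results of these data known, so these counts only describe them.

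These pathway calls depended on the fit to different degrees. The alternatives counted here include the main fit read again with a looser adjusted p and no fold cutoff. All 9 genes had to be called in that alternative, so it adds no support to the calls. *Ccl2* was called in 18 of 18 alternatives, *Lbp* in 15 of 18, *Cxcl10* in 15 of 19 and *Ptgs2* in 14 of 19. *Irf7* was called in 13 of 19, *Cxcl2*, *Ccl3* and *Ccl5* in 12 of 19 each, and *Nfkbiz* in 10 of 19. *Irf7*, *Nfkbiz*, *Cxcl2*, *Ccl3*, *Ccl5* and *Ptgs2* were lost when any 1 of the dCas9-KRAB libraries was left out. *Irf7* and *Ccl5* were also lost without dCas9-KRAB-En5 replicate 1 or 2, *Nfkbiz* and *Ccl3* without dCas9-KRAB-En5 replicate 1, *Lbp* without dCas9-KRAB replicate 1 or 2, and *Cxcl10* without dCas9-KRAB replicate 2. All 9 were called without dCas9-KRAB-En5 replicate 3.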

How the data were processed

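RNA-Seq of 6 libraries was used, 3 per group, grouped by the sample labels. The authors aligned reads with HISAT2 2.2.1 to GRCm38 and used featureCounts for the counts per gene. They deposited raw counts and TPM (counts per gene length, scaled within each library). The annotation release and strand setting are not given in the sources used here. Genes without counts were taken as 0. The exon lengths of GENCODE M21 lay within 1% of those implied by counts and TPM, after scaling, for at least 98.6% of genes with 100 counts in each library.

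Counts were tested with edgeR 4.0.16 in R 4.3.3 (TMM, filterByExpr with a minimum count of 10, glmQLFit, glmQLFTest, condition alone, Benjamini-Hochberg over 14378 genes), with cutoffs of 0.01 on the adjusted p and 1 on the size of the log2 fold change. DESeq2 1.42.0 and limma 3.58.1 were alternatives, with other scalings and filters, the replicate block and each library left out. Single values were compared with exact permutation tests in scipy 1.17.1.

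Replicate numbers come from the labels. Deviations from the group means were positively correlated over genes between same-numbered libraries (r = 0.262, 0.214 and 0.290). Between differently numbered ones r was negative, from -0.34 to -0.05, and since deviations sum to 0 within a group these values are not independent of the others. Every same-numbered r was over 0.1, so the numbers were treated as pairs in the alternative with a block. The authors did not state what a number marks.

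The genes and lists were chosen with earlier results of these data known. In each pathway list the named genes are the called genes, up to 4 by adjusted p, and up to 2 others with the highest mean TPM. The other mouse Toll-like receptors and *Myog* were always named. Marker lists are given by counts and summed TPM. The macrophage median ratio and the length offset were added after the data were examined. Intervals and floors (3 counts, 0.0405 to 0.0942 CPM) cover counting error only.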

Additional observations from a re-analysis of the deposited data

How the results depend on the processing

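None of the 10 genes was called in any of 19 alternatives. Of 188 alternative log2 fold changes 165 kept their direction and 23 did not, and the smallest adjusted p was 0.0252. The alternative with an adjusted p of 0.05 and no fold cutoff reads the main fit again. Its 10 fold changes, which are among the 165, could not change direction. *Tlr1*, *Tlr6*, *Tlr3*, *Tlr13*, *Cd14*, *Ly96* and *Myd88* kept their direction in every alternative. *Tlr3* and *Ly96* could not be fitted with at least 10 counts in every library, because they have 0 counts in dCas9-KRAB-En5 replicate 3. *Tlr2* changed sign with DESeq2's size factors (-0.036), the upper quartile (-0.052), DESeq2 (-0.037), no filter (-0.0073), at least 10 counts in every library (-0.044), the replicate block (-0.0079), macrophage counts as the library size (-0.46) and their median ratio (-0.22), and ranged from -0.14 to 0.16 with 1 library left out. The macrophage counts moved the median of all genes from 0.08 to -0.52, and their median ratio to -0.20. *Tlr4* changed sign in limma on log2(TPM + 1) (0.087) and log2(TPM + 0.1) (0.15) and with the block (0.031), and ranged from -0.48 to 0.56 with 1 library left out. *Tlr9* changed sign with total counts (0.022), both limma fits (0.29 and 0.43), the block (0.27) and the length offset (0.22), and ranged from -0.58 to 0.60 with 1 library left out. The cause was not tested. Over all genes 890 were called, against 2350 in DESeq2, 2198 with no filter, 544 with at least 10 counts in every library, 2449 at an adjusted p of 0.05, 514 in limma on log2(TPM + 1), 586 with total counts and 1543 with the block. Without dCas9-KRAB replicates 1, 2 and 3 there were 222, 325 and 397, and without dCas9-KRAB-En5 replicates 1, 2 and 3 there were 610, 518 and 3921. Pathway genes called higher, 4 in edgeR, were 12 in DESeq2, 13 with no filter, 13 at an adjusted p of 0.05, 1 in each limma fit, 1 with macrophage counts, 2 with their median ratio, 2 with total counts, 7 with the length offset, and 0 to 19 with 1 library left out. All genes called higher, 219 in edgeR, were 944 in DESeq2, 1004 with no filter and 1069 at an adjusted p of 0.05. They were 32 in limma on log2(TPM + 1), 66 on log2(TPM + 0.1), 58 with macrophage counts and 96 with their median ratio. They were 70 with total counts, 334 with the length offset, and 6 to 1787 with 1 library left out. Pathway genes called lower, 5 in edgeR, were 3 with DESeq2's size factors, 3 with at least 10 counts in every library, 2 in limma on log2(TPM + 1), and 1 to 7 with 1 library left out. All genes called lower, 671 in edgeR, were 654, 339 and 482 in the same order, and 216 to 2134 with 1 library left out. The replicate block changed no call of the 10 genes.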
